A study of Mus musculus with 24 samples.

Results

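Methionine restriction (MR) on a diet of elemental amino acids was followed in the inguinal fat pad of mice (IWAT), a white adipose depot under the skin of the groin. The libraries are the 6 elemental control and the 6 elemental MR libraries, chosen by their diet labels, out of 24 in the series. All mice were male C57BL6/J that began their diets at 5 weeks of age and were killed 12 weeks later, at a labelled age of 4 months, after a 4 h fast. Both diets of this comparison supplied protein as free amino acids, with methionine at 0.86% in the control and 0.17% in the MR diet. The other 12 libraries came from mice on intact casein (casein control) or on casein oxidized to remove methionine, with methionine returned to the MR level (oxidized casein MR), so that oxidation and methionine changed together there. The labels give 8 mice per diet, of which 6 were sequenced, each library from its own numbered mouse. Libraries are called control 1 to 6 and MR 1 to 6 here, numbers that only name them. The series' design text speaks of liver, while its title, sample source and protocol name IWAT. The white adipocyte markers summed to 38710 to 57007 CPM (reads of a gene scaled to a common library total) in the controls and 41486 to 60818 CPM with MR.

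Methionine is an essential amino acid that supplies methyl groups through S-adenosylmethionine and sulfur for cysteine and glutathione. Lowering dietary methionine is known in rodents to raise energy expenditure and to limit fat gain. Inguinal fat can form beige adipocytes, which burn fatty acids in mitochondria and release the energy as heat through Ucp1, under sympathetic signals that act through cAMP. Transport of acyl groups, phosphate and nucleotides across the inner mitochondrial membrane runs through the Slc25 carriers, a family whose members include both well-studied transporters and orphans.

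The promoter windows of 4 of the genes that carry the comparison are printed to show what stands at the starts of the genes with the largest rises and of the clearest fall. Sequences are the 300 bases around the start listed by RefSeq on GRCm38.p6, written 5′ to 3′ on the gene's strand, with capitals for a match to 1 of 6 motifs searched on both strands. They are chr2:69380212-69380511 (plus strand) for Dhrs9, chr4:141623785-141624084 (minus strand) for Slc25a34, chrX:85776770-85777069 (minus strand) for Gk and chr11:99040994-99041293 (plus strand) for Igfbp4.
Dhrs9: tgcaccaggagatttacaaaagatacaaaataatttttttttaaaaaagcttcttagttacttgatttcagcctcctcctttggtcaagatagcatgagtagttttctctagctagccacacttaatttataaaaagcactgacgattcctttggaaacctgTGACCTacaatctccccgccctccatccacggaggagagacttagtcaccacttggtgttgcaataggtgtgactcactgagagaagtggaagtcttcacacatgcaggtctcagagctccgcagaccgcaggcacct
Slc25a34: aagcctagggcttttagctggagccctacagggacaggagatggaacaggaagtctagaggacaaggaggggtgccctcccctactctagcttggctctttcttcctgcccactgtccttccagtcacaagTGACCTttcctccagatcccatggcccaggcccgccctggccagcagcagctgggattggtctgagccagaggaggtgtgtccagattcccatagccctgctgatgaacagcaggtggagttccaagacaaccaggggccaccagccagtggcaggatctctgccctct
Gk: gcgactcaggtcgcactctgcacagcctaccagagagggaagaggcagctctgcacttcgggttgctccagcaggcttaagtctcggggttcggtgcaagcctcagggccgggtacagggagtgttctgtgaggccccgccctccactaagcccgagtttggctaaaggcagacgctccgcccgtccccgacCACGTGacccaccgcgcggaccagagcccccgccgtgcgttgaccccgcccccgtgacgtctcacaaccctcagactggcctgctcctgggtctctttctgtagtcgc
Igfbp4: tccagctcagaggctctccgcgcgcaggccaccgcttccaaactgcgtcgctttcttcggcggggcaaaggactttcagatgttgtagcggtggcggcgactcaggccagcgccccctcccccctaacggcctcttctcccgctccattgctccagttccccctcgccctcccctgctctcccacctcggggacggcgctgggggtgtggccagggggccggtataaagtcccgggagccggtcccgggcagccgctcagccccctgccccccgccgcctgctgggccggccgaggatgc
The capitals in Dhrs9 and Slc25a34 are the nuclear receptor half-site AGGTCA, which lies on the other strand in both and so reads TGACCT. In Gk they are the E-box CACGTG, and the Igfbp4 window held none of the 6 motifs. Among the 10972 tested genes with a window, 15.2% held AGGTCA, and among the 27 called genes with a window 7 did, namely Slc25a34, Tbc1d20, Dhrs9, Slc4a4, Dlgap1, Gm10851 and 2810032G03Rik. The E-box stood in 11.3% of windows and in Tbc1d20, Dlgap1, Gk and 4931406C07Rik. The cAMP response element TGACGTCA stood in 3.33% of windows and in Nectin2 and Clstn3, and the ETS element CCGGAAGT in 8.4% and in Nectin2 and Slc25a20. The estrogen-related receptor element TCAAGGTCA, which contains AGGTCA, stood in 0.319% of windows, and the composite core TGATGNAA, bound by C/EBP and ATF4 pairs, in 2.86%. Neither was found in a called gene. A match is a run of letters in this window and not a measured binding site.

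Library totals ran from 11937056 to 19868913 reads in controls and from 8360132 to 17129341 reads with MR. The libraries were not pure adipose tissue. Transcripts of the lymph node that lies in this pad were counted as present where the mean log2 CPM of B cell markers was above 4. This held in 4 of 6 controls and in 5 of 6 MR libraries, all but MR 2. Below the cut, the mean was 0.40 in control 2, 2.68 in control 5 and 1.51 in MR 2. The muscle actin gene Acta1 reached 2946 CPM in control 2 and 1239 CPM in MR 2, and Alb, serum albumin, 5610 CPM in control 6. Control 1 had the highest control level of the heat-producing genes, with Ucp1 at 1211 CPM beside 15.6 to 726 CPM in the other controls. A wider rise of such genes without control 1 follows from leaving out the control nearest to MR and is not a separate test. Counts of calls were taken with and without these libraries, and log2 fold changes of the leading genes were computed without control 1 and without the muscle-rich control 2 and MR 2.

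With MR, 33 genes rose and 4 fell among the 15176 tested (edgeR quasi-likelihood test, adjusted p under 0.05 over all genes). That is 0.244% of the genes tested, with 0.217% rising and 0.0264% falling. The 33 include mitochondrial carriers (Slc25a34, an orphan, Slc25a20 and Slc25a42), enzymes of glycerol and acyl metabolism (Gk, Crat and Mlycd), a retinol dehydrogenase (Dhrs9), a bicarbonate cotransporter (Slc4a4), members of the cAMP pathway (Adcy3 and Akap1) and channels (Kcnk3 and Chrna2). The 4 that fell were Igfbp4, Abi3bp, Nucb2 and 2810032G03Rik. Of the 33 genes that rose, 27 had all 6 MR libraries above all 6 controls, and of the 4 that fell Igfbp4 had them all below. Over all genes, 0.573% (87 genes) had MR wholly above and 0.25% (38 genes) wholly below. When CPM were scaled by plain library totals in place of TMM, these counts became 52 above and 121 below, and edgeR called 44 genes, of which 24 were higher and 20 lower, with 28 of the 37 among them. The median log2 fold change of all genes was -0.02 with TMM and -0.16 with plain totals.

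**Figure D1:**
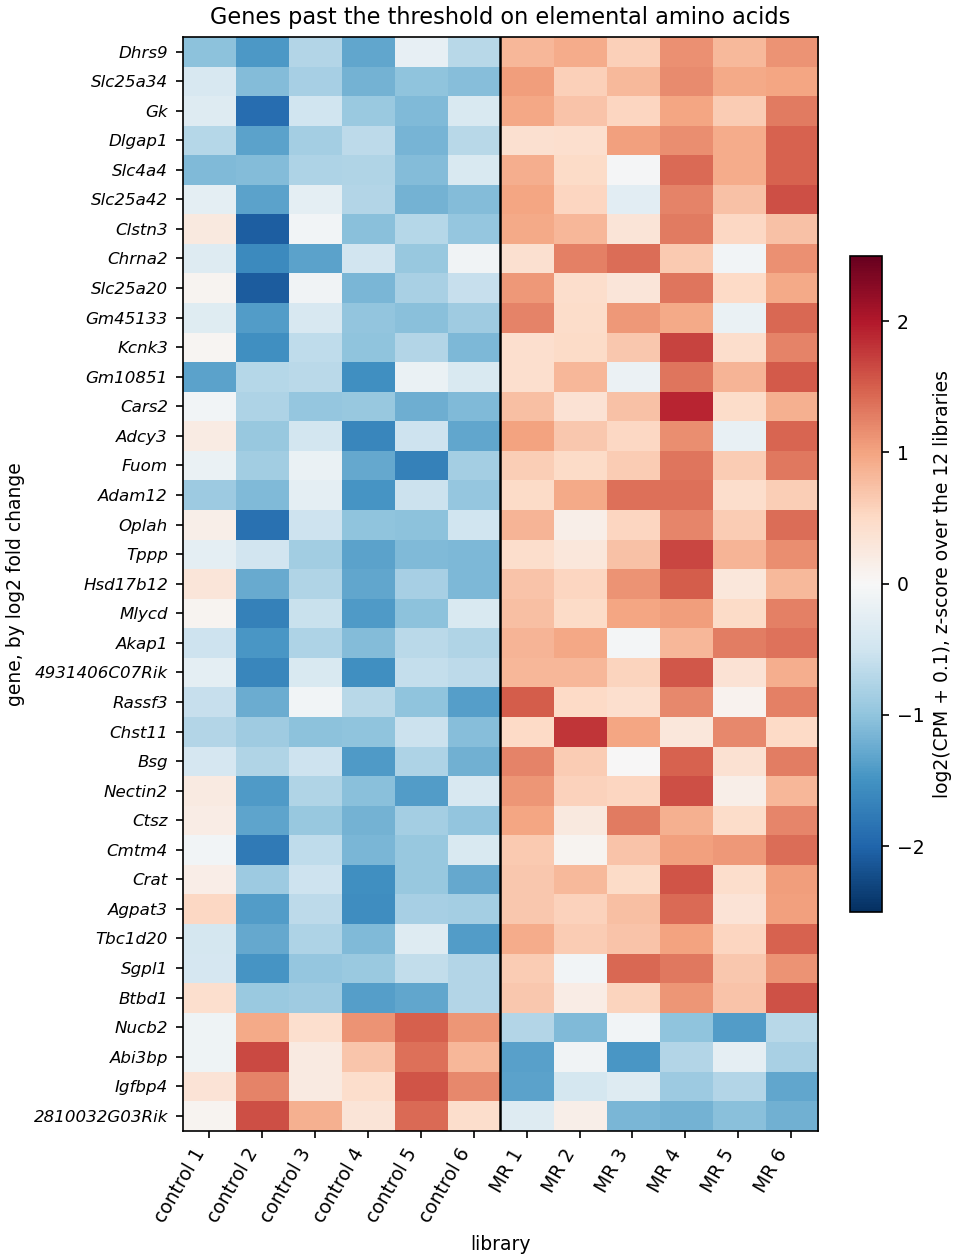
Heat map of the 37 genes with an adjusted p under 0.05 (rows, ordered by log2 fold change) in the 12 elemental libraries (columns, 6 controls left of the line and 6 MR right of it). Colour is log2(CPM + 0.1) as a z-score over the 12 libraries: the upper 33 rows are mostly red in the MR libraries and the lower 4 mostly blue there, with exceptions such as Slc25a42 in MR 3, Adcy3 in MR 5 and 2810032G03Rik in MR 2.

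The number of genes called turned on single libraries. It was 252 without control 1 (205 higher and 47 lower), which kept all 37. It was 7 without control 5 or MR 6, 8 without control 2, control 4 or MR 4, and 15 without control 6. It was 57 without casein control 6, whose library enters through the filter, the scaling and the shared estimate of the spread. Slc25a34, Sgpl1, Tbc1d20, Dhrs9, Adam12, Igfbp4 and Ctsz were called in all 24 fits that left out 1 library each. Without the muscle-rich control 2 and MR 2, 8 genes were called, and 7 of them were among the 37 (Slc25a34, Sgpl1, Tbc1d20, Dhrs9, Igfbp4, Ctsz and Oplah). The eighth was Gmpr, a GMP reductase named here after its value was seen. Without those libraries and the Alb-rich control 6, Slc25a34 alone was called. Among the libraries with lymph node transcripts, 4 controls and 5 MR, 5 genes were called: Slc25a34, Dhrs9, Igfbp4, Gmpr and Plppr3, the last named here after its value was seen. With lymph node presence as a term in the model all 37 kept their call and 166 genes passed in all, 104 higher and 62 lower.

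**Figure D2:**
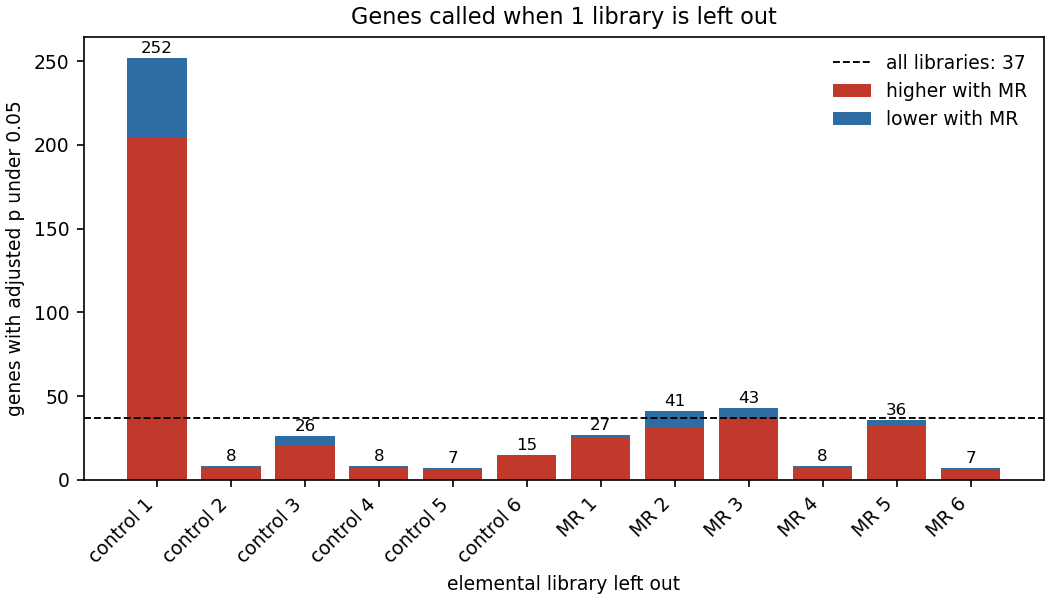
Number of genes with an adjusted p under 0.05 (vertical axis, bars split into higher and lower with MR) when 1 of the 12 elemental libraries is left out (horizontal axis). The dashed line marks the 37 genes of all libraries: the bar without control 1 reaches 252, and the bars without control 2, 4 or 5 or MR 4 or 6 stand at 7 or 8.

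Mitochondrial carriers held the gene with the smallest p. Slc25a34 (chromosome 4, 141618824 to 141623821, minus strand, GRCm38), an orphan member of the family, stood at 4.15 to 9.90 CPM in controls (median 4.90) and at 30.5 to 58.2 CPM with MR (median 45.6). The groups lay far apart, with MR 2 the lowest of its diet and control 1 the highest of its own. The rise was 7.78-fold (log2 fold change 2.96, SE 0.37, edgeR adjusted p = 0.000655, n = 6 each), 2.97 without the muscle-rich libraries and 3.15 without control 1. Slc25a20, which exchanges acylcarnitines for carnitine so that fatty acids can be oxidized, stood at 48.0 to 138 CPM in controls (median 94.7) and at 154 to 256 CPM with MR (median 190). These ranges did not overlap, and the rise was 2.04-fold (log2 1.03, SE 0.22, edgeR adjusted p = 0.0386), with a log2 fold change of 1.14 without control 1 and of 0.91 without the muscle-rich libraries (adjusted p = 0.0939). Slc25a42, which brings coenzyme A into the matrix, stood at 7.31 to 13.3 CPM in controls and 13.2 to 36.6 CPM with MR, a 2.47-fold rise (SE 0.26 on the log2 scale, edgeR adjusted p = 0.0271) in which MR 3 touched the control range. Those were the only 3 of 43 tested Slc25 members past the threshold, where 0.217% of all genes were called higher. The family's median log2 fold change was 0.06 beside -0.02 for all genes, and -0.08 with plain library totals. Slc25a17 of peroxisomes had 0.62 (adjusted p = 0.0945) and did not pass.

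Enzymes and anchors of acyl, glycerol and mitochondrial metabolism rose beside the carriers. Gk, glycerol kinase, which lets a fat cell reuse glycerol released by lipolysis, lies on chromosome X (85701937 to 85776819, minus strand). It stood at 7.62 to 27.6 CPM in controls (median 20.5) and 55.7 to 104 CPM with MR (median 71.8). The lowest MR library was above the highest control, and the rise was 3.80-fold (log2 1.92, SE 0.36, edgeR adjusted p = 0.0211). For Gk the log2 fold change was 2.03 without control 1 and 1.77 without the muscle-rich libraries (adjusted p = 0.0803). Crat, carnitine acetyltransferase of the matrix, rose from 101 ± 16.6 to 156 ± 18.1 CPM (SD, n = 6 each). Mlycd, which breaks down malonyl-CoA, the inhibitor of fatty acid entry, rose from 42.3 ± 9.48 to 73.1 ± 7.84 CPM. Hsd17b12, a reductase of the fatty acid elongation cycle, rose 1.77-fold (edgeR adjusted p = 0.0204), with control 1 at 329 CPM just above the lowest MR library at 327 CPM. Agpat3, an acyltransferase of phospholipid and triglyceride synthesis, rose 1.52-fold with overlap at control 1. Akap1, which anchors protein kinase A at the outer mitochondrial membrane, rose 1.71-fold (edgeR adjusted p = 0.02), and Cars2, the mitochondrial cysteinyl-tRNA synthetase, 1.89-fold. Neither overlapped.

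**Figure D3:**
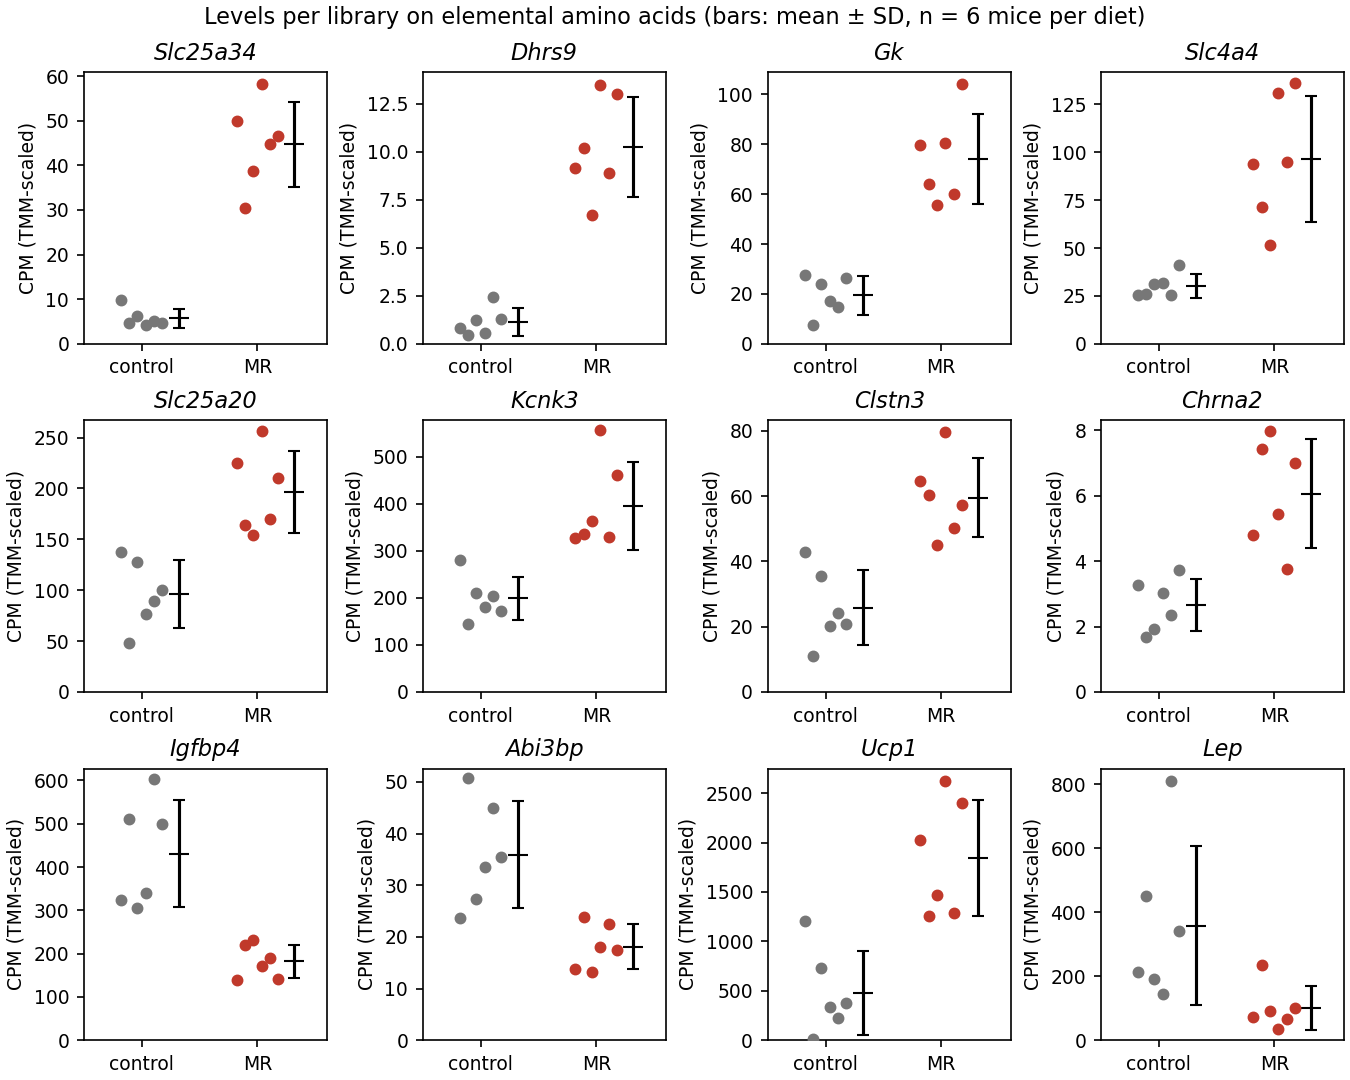
Level of 12 genes in each library (vertical axes, CPM scaled by TMM, from 0) in 6 controls (grey) and 6 MR mice (red), with the mean ± SD beside the points. Slc25a34, Dhrs9, Gk and Slc4a4 do not overlap between diets, Igfbp4 is lower in all MR mice, Abi3bp overlaps at its edges, and Ucp1 and Lep, which did not pass the test, vary widely among the controls.

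Dhrs9, a dehydrogenase that can oxidize retinol and related alcohols, had the largest fold change among the genes called. The gene lies on chromosome 2 (69380445 to 69404533, plus strand). It was scarce in controls, with 9 to 33 reads per library or 0.457 to 2.43 CPM (median 1.03), and stood at 71 to 188 reads or 6.70 to 13.5 CPM (median 9.67) with MR. The groups did not overlap, and the rise was 9.06-fold (log2 3.18, SE 0.53, edgeR adjusted p = 0.0106). On the log2 scale it was 3.10 without control 1 and 2.99 without the muscle-rich libraries (adjusted p = 0.0482). Dhrs9 was the only one of 24 tested genes of retinoid metabolism past the threshold, and the list had a median of -0.15. Aldh1a1, a retinaldehyde dehydrogenase, was at -1.49 on the log2 scale (SE 0.41, adjusted p = 0.142) and Rbp4, the retinol carrier of plasma, -0.87 (SE 0.32, adjusted p = 0.299). Neither passed.

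Slc4a4, the electrogenic sodium bicarbonate cotransporter (chromosome 5, 88886818 to 89239653, plus strand), stood at 25.3 to 41.0 CPM in controls (median 28.7) and 51.5 to 136 CPM with MR (median 94.5). The diets did not overlap, and MR 3 was the lowest of its group. The rise was 3.19-fold (log2 1.68, SE 0.29, edgeR adjusted p = 0.013), with a log2 fold change of 1.61 without control 1 and 1.68 without the muscle-rich libraries, where the adjusted p was 0.056. None of the other 18 tested bicarbonate transporters and carbonic anhydrases passed, and the list's median was -0.11. Car3, an abundant carbonic anhydrase of fat and muscle, was at -0.58 on the log2 scale (SE 0.26, adjusted p = 0.444), and Car13 0.41 (SE 0.15, adjusted p = 0.285).

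Kcnk3, Clstn3, Chrna2, Adcy3 and Dlgap1 rose as well. Kcnk3, a tandem-pore potassium channel enriched in brown adipocytes, stood at 145 to 280 CPM in controls and 328 to 556 CPM with MR. It rose 1.99-fold with no overlap (SE 0.18 on the log2 scale, edgeR adjusted p = 0.02), and its log2 fold change was 1.09 without control 1 and 0.93 without the muscle-rich libraries (adjusted p = 0.077). Clstn3, a calsyntenin whose adipocyte form acts at lipid droplets, rose from 25.8 ± 11.5 to 59.5 ± 12.2 CPM (2.31-fold, edgeR adjusted p = 0.0382). Chrna2, a nicotinic acetylcholine receptor subunit, stood at 1.68 to 3.72 CPM in controls and 3.75 to 7.98 CPM with MR. The groups did not overlap although MR 5 nearly met control 6, and the rise was 2.28-fold (SE 0.23 on the log2 scale, edgeR adjusted p = 0.0272). Adcy3, an adenylyl cyclase that makes cAMP, rose 1.89-fold with overlap. Of 21 adrenergic and cAMP genes, Adcy3 and Akap1 were those past the threshold, where 0.217% of all genes were called higher. The list's median was 0.15, or 0.01 with plain totals. Gnas, the stimulatory G protein subunit, had 0.47 (SE 0.15, adjusted p = 0.227) and Adra1a, an alpha-adrenergic receptor, 0.70 (SE 0.25, adjusted p = 0.276). Dlgap1, a scaffold protein of synapses, rose 3.60-fold from 1.17 to 1.91 CPM in controls to 3.99 to 8.44 CPM with MR (edgeR adjusted p = 0.02).

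A further 14 genes, of varied roles, rose between 1.36-fold and 1.87-fold. Sgpl1, the lyase that ends sphingosine-1-phosphate, rose from 75.2 ± 5.29 to 106 ± 11.3 CPM (1.41-fold, SE 0.08 on the log2 scale, edgeR adjusted p = 0.0104). Tbc1d20, a GTPase-activating protein for Rab proteins of the early secretory pathway and lipid droplets, rose from 66.0 ± 6.53 to 97.5 ± 7.56 CPM (1.48-fold, edgeR adjusted p = 0.0104). The spread of both among mice was small, and no library overlapped. With plain library totals Tbc1d20 passed and Sgpl1 did not. Adam12, a membrane metalloprotease, rose 1.81-fold, and Ctsz, the lysosomal protease cathepsin Z, 1.55-fold, with control 1 at 163 CPM close to the lowest MR library at 165 CPM. Oplah, the 5-oxoprolinase of the gamma-glutamyl cycle, rose 1.79-fold and was the only one of 28 glutathione genes past the threshold. Bsg, the partner that carries lactate transporters to the membrane, rose 1.58-fold. Nectin2, a cell adhesion protein, rose 1.57-fold, Chst11, a chondroitin sulfotransferase, 1.6-fold, and Tppp, which bundles microtubules, 1.78-fold. Chst11 was called in 7 of the 24 fits that left out 1 library each. It did not pass without a filter, without robust dispersions or with plain library totals. Fuom, the fucose mutarotase, rose 1.87-fold, Rassf3 1.68-fold, Cmtm4 1.55-fold, Btbd1 1.36-fold and 4931406C07Rik 1.68-fold.

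Gm10851, annotated as antisense, and Gm45133, an unassigned transcript model, rose 1.91-fold and 2-fold. The strand setting of the counting is not given in the sources used here, so reads of a gene and of a partner on the other strand cannot be told apart. Of the 37 called genes, 9 overlap a protein-coding gene on the other strand. Gm10851 lies opposite Pfkfb3, which was at -0.36 on the log2 scale (adjusted p = 0.689), and Gm45133 opposite Ccdc106, which was not tested. Cars2 lies opposite Naxd (0.21, adjusted p = 0.561), Crat opposite Dolpp1 (-0.43, adjusted p = 0.4) and Ctsz opposite Nelfcd (0.05, adjusted p = 1). The others are Adcy3, Fuom, Oplah and 4931406C07Rik.

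Igfbp4 showed the clearest fall. It encodes a secreted binding protein that holds insulin-like growth factors away from their receptor (chromosome 11, 99041244 to 99054392, plus strand). Its level was 306 to 604 CPM in controls (median 419) and 139 to 231 CPM with MR (median 181). Every MR library lay below every control, and the level was 2.37-fold lower (log2 -1.24, SE 0.21, edgeR adjusted p = 0.0106). Without the muscle-rich libraries the log2 fold change was -1.27, without control 1 -1.33, and with a term for lymph node presence -1.13. Of 19 tested genes of the IGF axis no other passed, and the list's median was -0.26. Igfbp5 was at -0.95 on the log2 scale (SE 0.30, adjusted p = 0.227) and Igfbp6 -0.81 (SE 0.41, adjusted p = 0.517).

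Abi3bp, a matrix protein that binds collagen, stood at 23.7 to 50.7 CPM in controls and 13.2 to 23.9 CPM with MR. Control 1 and MR 2 met at the edge of the groups, and the gene was 1.99-fold lower (SE 0.20 on the log2 scale, edgeR adjusted p = 0.0333). Nucb2, a calcium-binding protein of the secretory pathway and the precursor of nesfatin-1, fell from 26.7 ± 3.43 to 18.05 ± 1.97 CPM (1.48-fold, edgeR adjusted p = 0.0386) with overlap. The long intergenic RNA 2810032G03Rik stood at 0.727 to 2.59 CPM in controls and 0.208 to 0.778 CPM with MR. It fell 3.96-fold (SE 0.43 on the log2 scale, edgeR adjusted p = 0.0474), did not pass in limma voom, and was given no adjusted p by DESeq2. It was called in 6 of the 24 fits that left out 1 library each.

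Of 27 thermogenic genes tested, Kcnk3, Gk and Clstn3 passed the threshold, all higher, where 0.217% of all genes did so. Like the other lists, this one was chosen with earlier results of these data known, so its shares are descriptions and not tests. In the list 22 had a log2 fold change above 0, the values ran from -0.42 to 2.48, and the median was 0.96 beside -0.02 for all genes. In 6 of the 27 all MR libraries lay above all controls, as in 0.573% of all genes, and the other 21 overlapped. Without the muscle-rich libraries no member passed and the median was 0.79. Ucp1 stood at 1211, 15.6, 726, 333, 225 and 372 CPM in controls 1 to 6, and at 2030, 1256, 1467, 2619, 1289 and 2400 CPM in MR 1 to 6. The MR libraries all lay above the controls, control 1 nearly reaching MR 2, and the gene did not pass (log2 1.94, SE 0.85, edgeR adjusted p = 0.424). The log2 fold change of Ucp1 was 2.44 without control 1 (adjusted p = 0.217) and 1.75 without the muscle-rich libraries (adjusted p = 0.563). Elovl3, an elongase of very long fatty acids in brown adipocytes, stood at 3.402 to 79.1 CPM in controls and 134 to 334 CPM with MR, also without overlap and without passing (log2 2.48, SE 0.73, edgeR adjusted p = 0.18). Fabp3, a fatty acid binding protein of oxidative tissues, likewise did not overlap (22.7 to 153 against 161 to 281 CPM, adjusted p = 0.378) and is named here after its values were seen. Cidea, a lipid droplet protein, had 0.88 (SE 0.57, adjusted p = 0.654), Cox7a1, a cytochrome oxidase subunit, 1.16 (SE 0.55, adjusted p = 0.49) and Ppargc1a, the coactivator of mitochondrial genes, 0.71 (SE 0.21, adjusted p = 0.187). In bulk tissue fewer cells of a type and less RNA per cell cannot be told apart. Control 2, lowest in Ucp1, was also the library richest in Acta1, and without it alone Ucp1 had 1.67.

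No gene of respiratory complexes I to V or of the TCA cycle passed. All 36 tested genes of complex I had a log2 fold change above 0, between 0.23 and 0.58 with a median of 0.41, where 46.1% of all genes were above 0 with a median of -0.02. For complexes II to V the count above 0 was 36 of 39, with values from -0.44 to 0.70 and a median of 0.46, and for the TCA cycle 16 of 18, with values from -0.18 to 0.85 and a median of 0.50. With plain library totals these 3 medians were 0.27, 0.32 and 0.37. Idh3a, a subunit of isocitrate dehydrogenase, stood at 196 to 413 CPM in controls and 414 to 737 CPM with MR, which did not overlap (log2 0.85, SE 0.20, edgeR adjusted p = 0.0674). Ndufa3 of complex I had 0.53 (SE 0.14, adjusted p = 0.11) and Uqcrfs1 of complex III 0.70 (SE 0.21, adjusted p = 0.179). Without control 1, 11 genes of complex I, 21 of complexes II to V and 6 of the TCA cycle passed, all higher. In that fit 205 of all 15431 genes tested were called higher. Control 1 had the highest control level of Uqcrfs1 (486 CPM), so leaving it out widens that rise. The log2 fold change of Uqcrfs1 was 0.91 without control 1 and 0.55 without control 2. DESeq2 called 2, 4 and 4 genes of these 3 lists, all higher, where it called 159 of all 15176 genes higher. Limma voom and the fit of the elemental libraries alone called none of them. With lymph node presence as a term, 1 gene of the TCA cycle passed and none of the complexes.

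Of 23 genes of mitochondrial fatty acid oxidation, Slc25a20 and Crat passed the threshold, both higher, where 0.217% of all genes were called higher. In the list 22 had a log2 fold change above 0, where 46.1% of all genes did, and the median was 0.60. Acot2, a thioesterase of the matrix, stood at 62.1 to 216 CPM in controls and 161 to 264 CPM with MR (log2 1.09, SE 0.24, edgeR adjusted p = 0.0583). Control 1 was the control at 216 CPM, so leaving it out had to widen the rise. Without it the log2 fold change was 1.42 with an adjusted p of 0.000486, and without control 2 it was 0.98. Etfdh, which passes electrons from fatty acid oxidation to ubiquinone, had 1.02 (SE 0.24, adjusted p = 0.0697). Without control 1, 11 of the list passed, in the fit that called 205 of all 15431 genes higher. Without the muscle-rich libraries 0 of the list passed, where 7 of all 15116 genes were called higher. The 19 peroxisomal genes tested had a median of 0.18 and no call, with Acot4 at 1.21 (SE 0.33, adjusted p = 0.134) and Ehhadh at 1.185 (SE 0.45, adjusted p = 0.327).

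Mitochondrially encoded genes took 26.2% ± 3.97 of the reads in controls and 32.9% ± 2.73 with MR (SD, n = 6 each), a difference of 6.66 percentage points (2-sided exact permutation test, p = 0.0108, where 6 against 6 allows no less than 0.00216). Controls ran from 21.6% to 31.1% and MR from 29.5% to 36.2%, so the groups overlapped. With single libraries left out the difference ran from 5.73 to 7.64 points. Within the libraries with lymph node transcripts it was 4.66 points (exact permutation p = 0.0714). The 8 protein-coding mitochondrial genes in the table had a median log2 fold change of 0.60 and no call. Mt-Nd1, a subunit of complex I, had 0.65 (SE 0.21, adjusted p = 0.235).

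**Figure D4:**
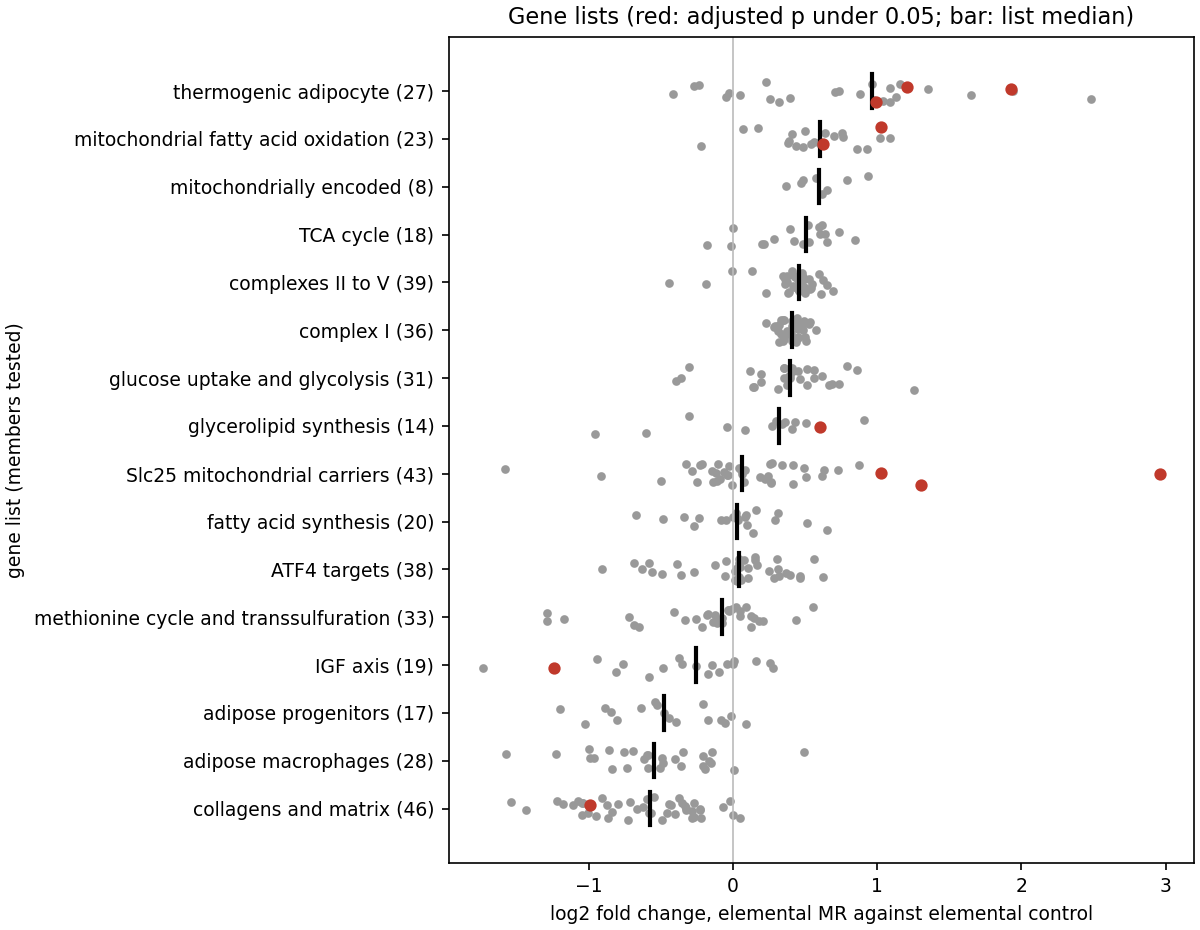
Log2 fold change (horizontal axis, elemental MR against elemental control) of every tested member of 16 gene lists (rows, with the number tested). Red points passed at an adjusted p under 0.05, grey points did not, and the black bar is the list median, which runs from 0.96 in the thermogenic list to -0.57 in collagens and matrix.

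Lists of fat storage and fuel use held few calls. Among 15 lipolysis genes Gk alone passed the threshold, higher with MR, and the median was 0.09. Agpat3 was the one of 14 glycerolipid genes past the threshold, higher with MR. That list's median was 0.32, and Gpd1, glycerol-3-phosphate dehydrogenase, had 0.91 (SE 0.29, adjusted p = 0.22). None of 20 fatty acid synthesis genes passed, and their median was 0.03. Fatty acid uptake (13 genes, median 0.20), branched-chain amino acid catabolism (21, 0.10), nuclear receptors and coactivators (23, 0.17) and creatine and calcium cycling (11, -0.34) held no call. Glucose uptake and glycolysis had 28 of 31 members above 0, where 46.1% of all genes were, with a median of 0.40 and no call. Pdk2, a kinase that restrains pyruvate dehydrogenase, came closest (0.66, SE 0.16, adjusted p = 0.0823). Ppargc1b, a coactivator related to Ppargc1a, had 1.01 (SE 0.30, adjusted p = 0.179).

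In the lists of ATF4 targets, the methionine cycle, glutathione and amino acid transporters, Oplah was the one call. None of 38 targets of ATF4, the transcription factor of amino acid shortage, passed, and their median was 0.05 beside -0.02 for all genes and -0.10 with plain totals. Asns, asparagine synthetase, stood at 23.6 to 37.03 CPM in controls and 25.9 to 34.8 CPM with MR (log2 0.04, SE 0.19, edgeR adjusted p = 1), the MR range lying inside the control range. Atf4 itself had 0.40 (SE 0.11, adjusted p = 0.142) and Trib3 0.56 (SE 0.20, adjusted p = 0.281). Fgf21, the hormone that the liver releases when methionine is short, gave 0 to 12 reads in controls and 4 to 14 with MR and was not tested. The 33 genes of the methionine cycle and transsulfuration had a median of -0.08 and no call. Nnmt, a methyltransferase that consumes S-adenosylmethionine, had -0.65 (SE 0.29, adjusted p = 0.432), and Cbs, which starts transsulfuration, -1.17 (SE 0.55, adjusted p = 0.481). Cbs stood at 64.6 CPM in the Alb-rich control 6 and at 4.12 to 11.8 CPM in the other controls, and without control 6 its log2 fold change was -0.15.

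Glutathione genes had a median of -0.01. Gsta3, a glutathione transferase, stood at 31.8 to 137 CPM in controls and 11.2 to 27.7 CPM with MR, wholly lower without passing (log2 -1.56, SE 0.37, edgeR adjusted p = 0.0775). The Alb-rich control 6 was the control at 137 CPM, and without it the log2 fold change of Gsta3 was -1.165. The 28 amino acid transporters had a median of -0.11 and no call. Slc7a8, a carrier of large neutral amino acids, was wholly lower (4.47 to 14.1 against 1.79 to 4.15 CPM, log2 -1.41, SE 0.37, edgeR adjusted p = 0.114), and the proton-coupled Slc36a2 wholly higher (123.6 to 207.5 against 208.0 to 263.7 CPM, log2 0.56, SE 0.13, adjusted p = 0.0823). Slc6a6, the taurine transporter, had 0.61 (SE 0.14, adjusted p = 0.0674).

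Of 46 collagen and matrix genes 44 had a log2 fold change below 0, the median was -0.57, and Abi3bp alone passed the threshold. Of all genes tested, 46.1% were above 0. Col3a1, a fibrillar collagen, stood at 590 to 1873 CPM in controls and 368 to 585 CPM with MR, which did not overlap (log2 -1.18, SE 0.34, edgeR adjusted p = 0.159). Of 28 macrophage genes 26 were below 0 with a median of -0.55 and no call. C1qa, a complement subunit made by macrophages, had -0.59 (SE 0.18, adjusted p = 0.203) and Adgre1, which encodes F4/80, -0.86 (SE 0.28, adjusted p = 0.245). Progenitor markers had a median of -0.48 over 17 genes and no call, and their summed level ran from 1840 to 3680 CPM in controls and from 1405 to 2378 CPM with MR. Whether cell numbers moved with these levels was not tested.

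Among adipokine genes, Lep, leptin, stood at 145 to 810 CPM in controls (median 277) and 36.2 to 235 CPM with MR (median 82.1). The groups overlapped through MR 2, and the gene did not pass (log2 -1.84, SE 0.66, edgeR adjusted p = 0.297). Adipoq, adiponectin, had -0.15 (SE 0.28, adjusted p = 0.977), with levels of 2046 to 4475 CPM in controls and 1949 to 3647 CPM with MR. The 23 adipokine and fat expansion genes had a median of -0.19 and no call. No member passed in the circadian clock (18 genes, median -0.10), interferon response (20, 0.21), proliferation (16, 0.02) or immediate early lists (15, -0.05). In the list named ER chaperones (21 genes) Nucb2, a calcium-binding protein of the secretory pathway, alone passed, lower with MR. That list's median was -0.02.

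None of the 13 marker lists of cell types held a call. White adipocyte markers had a median of 0.09, B cells 0.18, T cells 0.21, endothelium -0.16, smooth muscle and pericytes -0.23, nerve -0.37, granulocytes and mast cells -0.48 and red blood cells -0.59. The medians of 4 lists were below -1. Skeletal muscle had -1.03, with a summed level of 141 to 18851 CPM in controls (median 306) and 119 to 8376 CPM with MR (median 310), and -0.32 without control 2 and MR 2. Hepatocyte markers had -1.67, with 194 to 10408 CPM in controls (median 941) and 139 to 1586 CPM with MR (median 675), and the list's median was -0.08 without control 6. Ductal epithelium had -1.55 and keratinocytes -1.19, with summed levels of at most 31.2 CPM in any library.

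Close to the threshold, 54 genes had an adjusted p between 0.05 and 0.10, 40 of them higher. Those of smallest p outside the lists included Osbpl9, Abhd6, Prkce, Comtd1, Tgoln1 and Tmed5 on the higher side and Srbd1, Maf and C4b on the lower. Abhd6, a monoacylglycerol lipase, had 0.59 (SE 0.13, adjusted p = 0.0583) and Prkce, a protein kinase C, 0.58 (SE 0.13, adjusted p = 0.0583), both with all MR libraries above all controls. Srbd1 was wholly lower (-0.54, SE 0.12, adjusted p = 0.064). Maf, a transcription factor, had -0.55 and the complement gene C4b -1.003, both with overlap.

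Several genes with larger fold changes did not pass and were picked after their values were seen. Lgr6, a receptor for R-spondins, stood at 0.965 to 9.27 CPM in controls and 13.9 to 35.3 CPM with MR (log2 2.75, SE 0.68, edgeR adjusted p = 0.0974). Slc9a2, a sodium-proton exchanger, stood at 1.14 to 2.54 CPM in controls and 4.38 to 5.42 CPM with MR, a narrow range (log2 1.57, SE 0.36, adjusted p = 0.0674). Tmem82, with only 2 to 14 reads per library in controls and 16 to 47 with MR, had 2.17 (SE 0.50, adjusted p = 0.0674). On the lower side Sult1e1, the estrogen sulfotransferase, had -2.22 (SE 0.55, adjusted p = 0.0942), Sfrp2, a secreted Wnt modulator, -1.47 (SE 0.38, adjusted p = 0.106), and Cyp2e1, a cytochrome P450, -1.40 (SE 0.34, adjusted p = 0.0932). All but Cyp2e1 separated the diets without overlap. Cyp2e1 was highest in the Alb-rich control 6 (356 CPM), and without control 6 its log2 fold change was -1.20.

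Beside the oxidized casein diet, whose comparison shares no library with this one, values of the called genes are set side by side. MR on casein called 579 genes, 3.82% of those tested, and 30 of the 37 were among them. The sign was the same for 36 of the 37. Slc25a34 had a log2 fold change of 2.96 (SE 0.37) on elemental amino acids and 2.97 (SE 0.38) on casein, although its levels on casein were lower in both groups (2.87 ± 1.95 and 22.4 ± 8.81 CPM). Dhrs9 had 3.18 and 3.19, Gk 1.92 and 1.68, Slc4a4 1.68 and 1.29, and Igfbp4 -1.24 and -1.05. Values were further apart for Chrna2 (1.19 and -0.10), Abi3bp (-0.99 and -0.53), Gm10851 (0.93 and 0.35) and Btbd1 (0.44 and 0.16). The 7 genes not called on casein were Chrna2, Gm10851, Abi3bp, Btbd1, Nucb2, Tppp and 2810032G03Rik.

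The difference between the restriction effects was tested directly. No gene of the 15176 passed (0% called by edgeR, 506 at an unadjusted p under 0.05, 2 by DESeq2 and 0 by limma voom), so none of the 37 was shown to respond otherwise on casein. The pair called by DESeq2 was Insig1 and Scd1, genes of sterol and fatty acid synthesis outside the 37. Chrna2 differed most among the called genes. It stood at 2.78 ± 0.72 CPM in casein controls and 2.58 ± 0.50 CPM in oxidized casein MR (log2 -0.10, SE 0.24), where the elemental effect was 1.19 (SE 0.23). The difference of -1.29 had an unadjusted p of 0.000759 and an adjusted p of 0.91. Among the other genes, Gm10851 (difference -0.58, unadjusted p = 0.0368) and Btbd1 (-0.28, unadjusted p = 0.0404) had an unadjusted p under 0.05 as well.

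**Figure D5:**
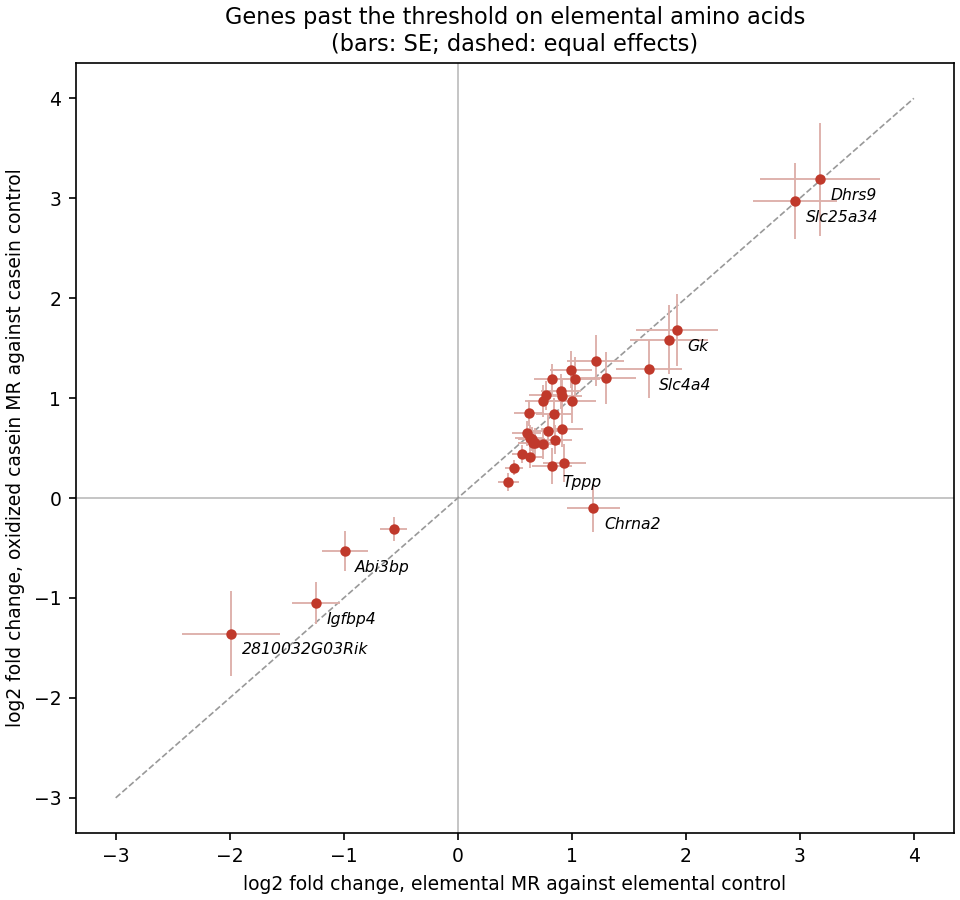
Log2 fold change of the 37 genes called on elemental amino acids (horizontal axis) beside the same gene's log2 fold change on casein (vertical axis), with bars for the SE and a dashed line of equal effects. The points were chosen by their elemental value, 36 of 37 lie on the same side of 0 on both axes, and Chrna2 (1.19 and -0.10) is the exception.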

How the data were processed

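IWAT of 24 mice was sequenced with a QuantSeq 3′ mRNA kit and 50 bp forward reads, per the labels' protocols. The authors deposited raw counts of reads per Ensembl gene (16821 genes), and only this table was used. A deposited normalized table was not used. Builds GRCm38 and mm10 and the tools R 3.4.3 and DESeq2 1.18.1 stand in the submitters' processing notes. Aligner, counter and strand setting: not given in the sources used here. Without molecular identifiers a read count includes PCR copies, and the error of a value is the spread over mice.

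With edgeR 4.0.16 (R 4.3.3), genes were filtered by filterByExpr (15176 kept), scaled by TMM and fitted with 1 mean per diet over all 24 libraries and robust dispersions. Quasi-likelihood F tests were 2-sided, adjusted by Benjamini-Hochberg over all genes tested, with a threshold of 0.05. Adjusted p-values are edgeR's unless another tool is named. CPM use TMM-scaled totals, and a group value is the mean ± SD of 6 mice. The share of mitochondrial reads was compared by an exact permutation test. Symbols came from GENCODE M21 (16771 genes matched). Promoter windows came from RefSeq.

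Named genes are all those past the threshold, up to 4 members of smallest p of each list described, 10 fixed genes of which Cpt1b was not analysed here, and 10 outside the lists with an adjusted p of 0.05 to 0.10, of which 1 is not reported here. Others were chosen after their values were seen and are marked so. Gene lists (32 of processes, 13 of cell types) and members were chosen with earlier results of these data known. Scripts were tested on simulated data. Libraries of a group differed by more than counting noise (chi-square per degree of freedom 13.2 to 183 over 30 pairs) and each was counted as 1 mouse.

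Alternatives were DESeq2 1.42.0, voom of limma 3.58.1, other scaling, no filter, lymph node terms and left-out libraries. Plain totals in edgeR, mitochondrial genes left out before scaling, only lymph node libraries, and leaving out the Alb-rich library with the muscle-rich ones were chosen after seeing the data.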

Additional observations from a re-analysis of the deposited data

Results flagged for a closer look

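In 17 of 302 groups of 6 libraries examined over 150 named genes, 1 library lay far from the other 5 by Dixon's criterion, which chance meets in about 1 of 20 groups. Control 1 was high for Ctsz (163 CPM), Hsd17b12 (329 CPM), Btbd1 (45.3 CPM) and Rdh14, a retinol dehydrogenase (27.4 CPM). Control 5 was high for the macrophage genes C1qa (130 CPM) and Adgre1 (21.1 CPM), control 6 for Crot, a peroxisomal carnitine acyltransferase (85 CPM), and control 3 was low for Dnajb9, an ER chaperone (5.77 CPM). MR 4 was high for Cars2 (39.4 CPM), Mdh2 of the TCA cycle (774 CPM) and Car13 (17.9 CPM). MR 1 was low for Abhd5, a lipase coactivator (96.8 CPM), Gstm1 (146 CPM), Slc38a4 (1.67 CPM) and Sult1e1 (0.435 CPM). MR 2 was high for Npr3, the natriuretic peptide clearance receptor (314 CPM), and MR 3 low for Akap1 (57.7 CPM).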

How the results depend on the processing

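The count of 37 genes was 221 in DESeq2, 199 with the B cell marker level in the model and 166 with presence of lymph node in it. It was 23 in a fit of the elemental libraries alone (21 of the 37 among them), 8 without the 2 libraries richest in Acta1, 5 among libraries with lymph node transcripts and 1 without the Acta1-rich and Alb-rich libraries. It ran from 7 to 252 with single libraries left out. It stayed within 1.5 times in limma voom (53), with RLE size factors (39), without a filter (36), without robust dispersions (37), with mitochondrial genes left out before scaling (38) and with plain totals (44). DESeq2 and limma voom each called 36 of the 37. The difference between protein sources called 2 genes in DESeq2 and 0 in each left-out fit. The mitochondrial share differed by 4.66 points (weaker, p = 0.0714, exact permutation test) among libraries with lymph node transcripts and by 5.73 to 7.64 points with single libraries left out. Genes without overlap numbered 125, 173 with plain totals and 123 without mitochondrial genes in the scaling. With single libraries left out they numbered 144 to 422. Those furthest from 125 were 422 without control 1, 256 without MR 2, 241 without MR 3 and 202 without control 3. Among single genes, signs turned for Adipoq and Asns, neither called. Adipoq was 0.0605 with lymph node presence, 0.0311 with the B cell level and 0.123 among lymph node libraries, and ran from -0.276 to 0.0263 with single libraries left out. Asns was -0.103 with plain totals and ran from -0.0178 to 0.111. The cause of the changes in this section was not tested. No paired analysis was possible because the labels number mice and not pairs across diets. With 8360132 to 19868913 reads, genes of few reads such as Fgf21 could not be compared at this depth.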
